A study of Homo sapiens with 16 samples.

Results

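The data describe 10 genes of cellular iron handling, followed through RNA and ribosome-protected mRNA footprints (RPFs) of 4 human breast cancer lines. They were FTH1 and FTL (the ferritin chains), TFRC and SLC11A2 (iron uptake), ACO1, IREB2 and FBXL5 (iron sensing), NCOA4 (ferritin turnover), and PCBP1 and PCBP2 (iron chaperones). The 10 were taken by gene symbol from the 10823 transcripts listed over both tables, where each gene has 1 transcript. They were chosen by their known role in iron handling after the lower FTH1 RPF values of MDA-LM2 cells had been seen, so for these genes MDA-LM2 and parental values are described side by side, and no test on them is used as support. The comparison of HNRNPC knockdown with its control was not used to choose them, and is tested.

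The parental cells, MDA-MB-231, come from a breast cancer that lacks hormone and HER2 receptors and are labelled poorly metastatic, and MDA-LM2 is its derivative labelled as highly metastatic to lungs. The sgControl and sgHNRNPC lines are MDA-MB-231 cells that express dCas9-KRAB, a nuclease-dead Cas9 fused to a transcriptional repressor, together with a non-targeting guide or a guide against HNRNPC, an mRNA-binding protein that recognises runs of U. The dCas9-KRAB cells were a sorted pool made with a lentivirus, and guide-carrying cells were selected with puromycin. All lines were grown in the same high-glucose medium with serum and antibiotics, and none carried an iron treatment. Each line had 2 RNA and 2 RPF libraries, which makes 16 samples in 8 groups of 2 biological replicates, and the RNA and RPF libraries of a replicate came from the same lysate. Translational efficiency (TE) is the RPF value divided by the RNA value of that lysate. VIM, CD44, AXL, EGFR, CAV1 and MSN, which mark this mesenchymal-like line, all lay at or above percentile 94.3 of listed RNA values in both tables, and ESR1, PGR, CDH1, PTPRC, PECAM1, ALB and HBB were not listed. Of the markers taken to be low, the cytokeratins KRT8 and KRT18 lay at percentile 94.7 or higher, and ERBB2, which encodes HER2, at 80.9 in the MDA-LM2 table and 36.8 in the knockdown table.

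Iron is toxic when free and scarce when bound, so cells balance its uptake against its storage, and most of that balance is set on mRNAs. Iron regulatory proteins, encoded by ACO1 and IREB2, bind a hairpin called the iron-responsive element (IRE) when iron is low. An IRE in the 5′ UTR blocks the start of translation, as in ferritin mRNAs, whereas IREs in the 3′ UTR protect an mRNA from decay, as in TFRC. Ferritin stores iron in a shell of heavy (FTH1) and light (FTL) chains.

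The hairpins are shown because matches to the pattern below set apart the ferritin and receptor mRNAs from the other 7 and from nearly all listed transcripts. The annotated UTRs of the listed transcripts were searched on the mRNA strand for a C, any 5 bases, the loop CAGTGN and then 5 bases that pair with the 5 before the loop. The sequences are from hg38 with GENCODE 44 annotation, 5′ to 3′ in DNA letters, with the loop in capitals. In FTH1 (ENST00000273550, minus strand) the match lay in the 5′ UTR at chr11:61967574-61967602, and in FTL (ENST00000331825, plus strand) in the 5′ UTR at chr19:48965335-48965363.
FTH1, 5′ UTR: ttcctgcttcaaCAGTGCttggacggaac
FTL, 5′ UTR: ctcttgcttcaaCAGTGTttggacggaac
In TFRC (ENST00000360110, minus strand) 4 matches lay in the 3′ UTR, at chr3:196050979-196051007, chr3:196050575-196050603, chr3:196050510-196050538 and chr3:196050463-196050491 in the order of the mRNA.
TFRC, 3′ UTR, element 1: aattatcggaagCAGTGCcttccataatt
TFRC, 3′ UTR, element 2: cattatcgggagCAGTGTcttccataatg
TFRC, 3′ UTR, element 3: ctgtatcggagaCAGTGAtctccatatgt
TFRC, 3′ UTR, element 4: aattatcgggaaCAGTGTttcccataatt
Among all listed transcripts with an annotated UTR, 11 of 10083 5′ UTRs (0.109%) and 75 of 10517 3′ UTRs (0.713%) held such a match. The listed transcript of SLC11A2, like those of ACO1, IREB2, FBXL5, NCOA4, PCBP1 and PCBP2, held none. The search asked for all 5 pairs and this loop, so it misses hairpins of any other form. The lack of a match, in SLC11A2 or another mRNA, therefore does not mean that it lacks an IRE. A C followed by 6 U, written here as CTTTTTT, is of the kind HNRNPC recognises. It was in the 3′ UTR of none of the 10 transcripts and in 43.035% of all 3′ UTRs searched. The median 3′ UTR searched had 1170 bases. Those of FTL, NCOA4, PCBP1, PCBP2 and FTH1 had 144 to 442, and those of FBXL5, SLC11A2, TFRC, IREB2 and ACO1 had 1342 to 4658. Runs of U without this C and unlisted isoforms are not covered, so lack of this run does not mean that HNRNPC does not bind. A match is a run of letters and not a measured binding site.

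There were 10799 transcripts in the MDA-LM2 table and 8980 in that of the knockdown, with all 10 iron genes in each. A gene was tested where its mean reached 10 normalised counts in RPF and also in RNA, which left 8393 and 4283 genes. All 10 iron genes passed in the MDA-LM2 table and 8 passed in the knockdown table, where IREB2 and SLC11A2 fell short in RPF. RNA libraries summed to between 5415889 and 8326052 normalised counts. A single transcript without a matched gene symbol, ENST00000536684, made up 18.1% to 21.1% of each RNA total in the knockdown table. PLCG2 made up 3.47% to 5.83% in the MDA-LM2 table. Shares of a library total and rescaling to equal totals therefore include these entries. RPF libraries summed to between 650736 and 679726 in the MDA-LM2 table and between 158011 and 167928 in the knockdown table, and the number of footprints sequenced behind these sums is unknown. The 2 tables were normalised separately, so levels are compared only within a table. FTH1 has 25 annotated pseudogenes, FTL 16, and NCOA4 and PCBP2 have 4 each. Reads were assigned to a single mRNA per gene, and the part of such copies in the values was not tested.

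The ferritin mRNAs were among the most abundant of all and had some of the fewest footprints for their RNA level. Their footprints as such were not few. Per kilobase of coding sequence, RPF lay at percentile 91.3 for FTH1 and 92.5 for FTL in parental cells. It lay at 75.4 and 78.3 in MDA-LM2 cells, 84.8 and 88.1 in sgControl and 86.2 and 89.4 in sgHNRNPC. Per kilobase of transcript, FTL RNA lay at percentile 99.5 or higher and FTH1 RNA at percentile 98.5 or higher of the tested genes in each of the 4 lines. On TE per length, the RPF value per kilobase of coding sequence over the RNA value per kilobase of transcript, only 5 of 8208 genes lay below FTL in parental cells and only 2 in MDA-LM2 cells. For FTH1, 153 genes lay below it in parental cells and 15 in MDA-LM2 cells. The median gene had a TE per length 26.7 times that of FTL and 7.01 times that of FTH1 in parental cells, and 47.0 and 15.1 times in MDA-LM2 cells. In the knockdown table, 5 of 4190 genes lay below FTH1 in sgControl and 5 in sgHNRNPC, and 11 and 7 lay below FTL. Lengths are those of GENCODE 44 and may differ from the reference the authors aligned to.

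The other 8 genes spread over the rest of the TE distribution. In parental cells TE per length was highest for IREB2, at percentile 89.4, followed by TFRC at 88.7, ACO1 at 80.5, SLC11A2 at 77.6, FBXL5 at 59.2, NCOA4 at 57.7, PCBP1 at 41.3 and PCBP2 at 36.8. In MDA-LM2 cells the order of the lowest 2 of the 10 stayed FTL and FTH1, and PCBP2 lay at percentile 19.4. In sgControl cells ACO1 was highest at percentile 88.6 and TFRC lay at 47.3. FBXL5 lay at 10.8 there and IREB2, which was below the minimum mean, at 19.0, so the parental order did not hold in that table. These are levels from the mean of 2 libraries, and the order of IREB2 and TFRC, or of FBXL5 and NCOA4, in parental cells rests on values that lie close together.

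**Figure D1:**
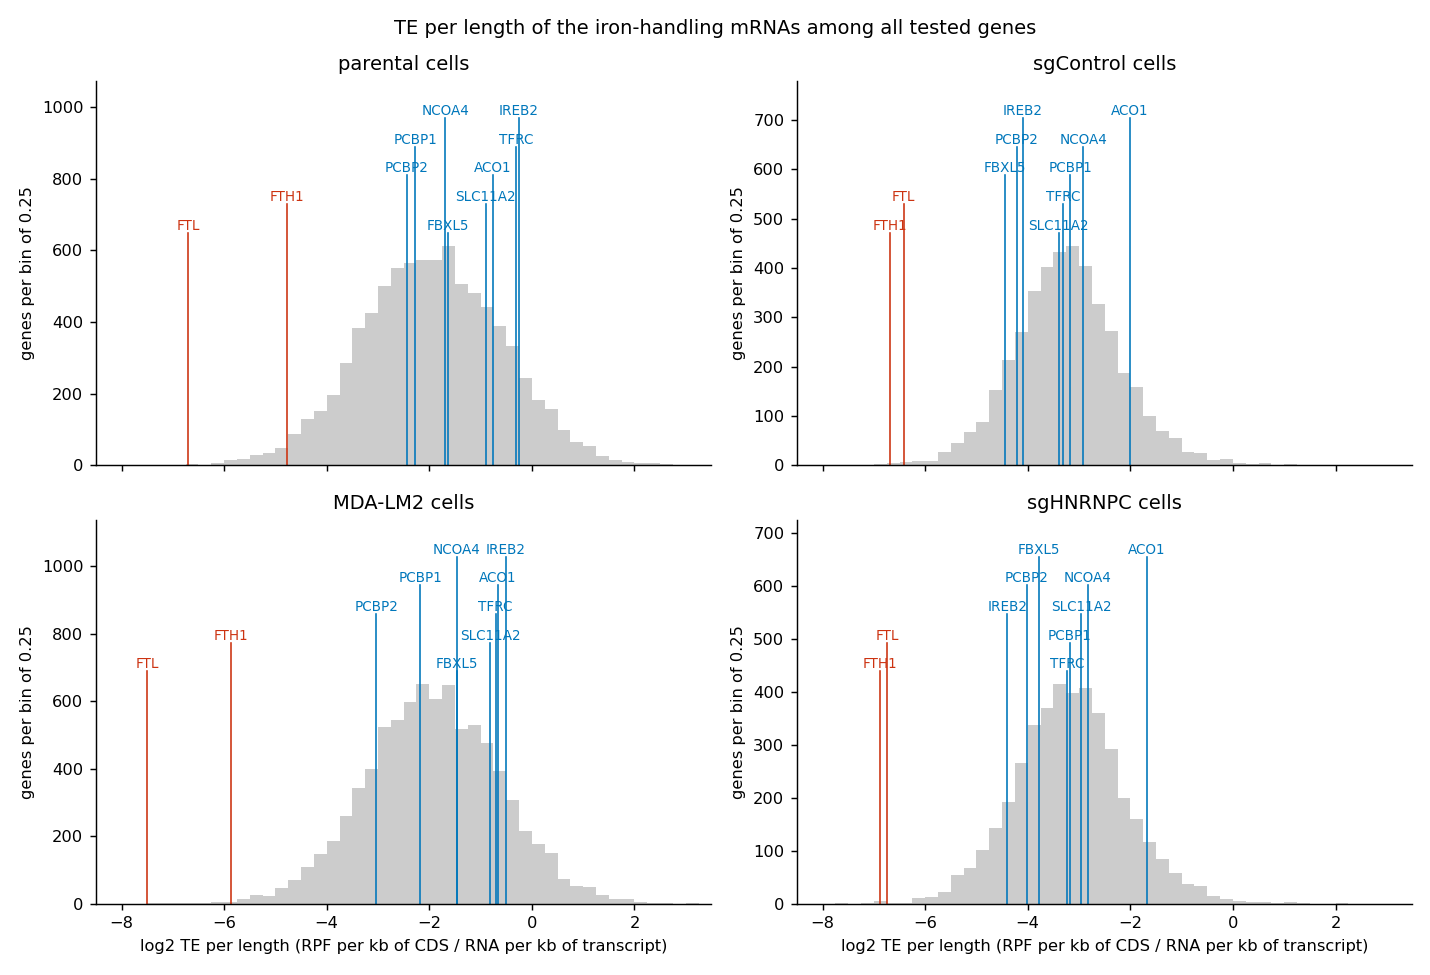
Histograms of log2 TE per length (x axis, RPF per kilobase of coding sequence over RNA per kilobase of transcript) for all tested genes with an annotated length, 8208 in parental and MDA-LM2 cells and 4190 in sgControl and sgHNRNPC cells, with the number of genes per bin of 0.25 on the y axis. Vertical lines mark the 10 iron genes, of which IREB2 and SLC11A2 are below the minimum mean in the sgControl and sgHNRNPC panels; FTH1 and FTL (red) sit at the far left of every panel while the other 8 (blue) lie to their right.

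FTH1, the ferroxidase chain of ferritin, had RNA values of 5648 and 5789 normalised counts in parental replicates 1 and 2 and of 4023 and 5142 in MDA-LM2 replicates 1 and 2. Footprints stood at 84.4 and 108 in parental cells and 30.9 and 41.6 in MDA-LM2 cells. TE went from 0.0149 and 0.0187 to 0.00768 and 0.00809. Both MDA-LM2 libraries lay below both parental libraries in RPF and TE, and also in RNA on the deposited scale, with the widest gap in RPF. As CPM, the share of the library total, the RNA values overlapped, at 678 and 707 in parental and 525 and 732 in MDA-LM2 cells. On the log2 scale of value plus 1, RNA changed by -0.33 ± 0.15 (SE, n = 2 libraries per line), RPF by -1.39 ± 0.19, and TE by -1.06 ± 0.24. The RNA change was -0.15 without replicate 1 of MDA-LM2 and -0.51 without replicate 2, -0.16 with libraries rescaled to equal totals and -0.06 after quantile normalisation. The RPF change, 2.62-fold lower, was the 62nd lowest of 8393 genes, and the TE change was the 16th lowest.

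FTL, the light chain, had RNA values of 17958 and 18102 in parental cells and of 14900 and 8168 in MDA-LM2 replicates 1 and 2. Footprints of FTL stood at 97.2 and 114 in parental cells and 38.6 and 38.7 in MDA-LM2 cells. TE was 0.00541 and 0.00627 in parental and 0.00259 and 0.00474 in MDA-LM2 cells. The footprints of the MDA-LM2 replicates were nearly equal while their RNA was not, so the RNA and TE changes of FTL depended on which replicate was used. RPF changed by -1.42 ± 0.17 on the log2 scale, 2.67-fold lower and the 60th lowest of 8393 genes. RNA changed by -0.71 ± 0.26, and by -0.28 with replicate 2 of MDA-LM2 left out or -1.14 with replicate 1 left out. TE changed by -0.71 ± 0.28, the 125th lowest, and by -1.14 or -0.27 with the same libraries left out in that order.

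TFRC, the transferrin receptor that brings in iron-loaded transferrin, had RNA values of 1026 and 1140 in parental cells and of 1334 and 1971 in MDA-LM2 cells. Its RPF values were 384 and 413 in parental and 432 and 490 in MDA-LM2 cells. Both MDA-LM2 libraries lay above both parental libraries in RNA and in RPF, and below them in TE, which was 0.374 and 0.362 in parental and 0.324 and 0.249 in MDA-LM2 cells. RNA changed by 0.58 ± 0.18 (0.30 without replicate 2 of MDA-LM2), RPF by 0.21 ± 0.10 (0.12 without the same library) and TE by -0.38 ± 0.22 (-0.18 without it) on the log2 scale. Ferritin footprints were thus lower, and receptor footprints higher, in both MDA-LM2 libraries. The ratio of FTH1 to TFRC footprints within a library, which the scaling of libraries does not alter, was 0.220 and 0.262 in parental cells and 0.0715 and 0.0848 in MDA-LM2 cells. The ratio of FTL to TFRC footprints was 0.253 and 0.275 in parental cells and 0.0895 and 0.0790 in MDA-LM2 cells. Both ratios were lower in both MDA-LM2 libraries than in either parental library.

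SLC11A2, the divalent metal transporter that carries iron out of endosomes, differed little. Its RNA was 119 and 144 in parental and 131 and 137 in MDA-LM2 cells, and its RPF 34.4 and 26.1 against 35.1 and 30.5. The lines overlapped in both kinds of library.

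Of the sensors, IREB2 (iron regulatory protein 2) had RNA values of 124 and 156 in parental and of 199 and 239 in MDA-LM2 cells, and RPF values of 50.2 and 57.0 against 68.0 and 73.0. Both MDA-LM2 libraries lay above both parental ones, with a log2 change of 0.65 ± 0.17 in RNA and of 0.39 ± 0.18 in RPF. ACO1 (iron regulatory protein 1, an aconitase when it holds an iron-sulfur cluster) had RNA values of 918 and 896 against 939 and 947, and RPF values of 199 and 186 against 213 and 214. These did not overlap, but the log2 changes were small, 0.06 ± 0.10 in RNA and 0.15 ± 0.11 in RPF. FBXL5, the ubiquitin ligase adaptor that marks IREB2 for degradation when iron is plentiful, had RNA values of 216 and 198 against 171 and 184, which overlapped as CPM, at 25.9 and 24.2 against 22.3 and 26.3. Its RPF values, 41.6 and 37.2 against 36.0 and 41.2, overlapped between the lines.

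NCOA4, the receptor that delivers ferritin to lysosomes so that its iron is released, had RPF values of 188 and 206 in parental and of 241 and 284 in MDA-LM2 cells. The log2 RPF change was 0.41 ± 0.11, against 0.19 ± 0.12 in RNA, where values were 751 and 751 against 802 and 911. Footprints of the ferritin receptor were thus higher in both MDA-LM2 libraries while those of ferritin were lower.

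The chaperones differed from each other. PCBP2 had RPF values of 459 and 430 in parental and of 326 and 325 in MDA-LM2 cells, a log2 change of -0.45 ± 0.10. Its RNA, 3934 and 3982 in parental cells, was 3262 and 5491 in MDA-LM2 replicates 1 and 2 and straddled the parental values. PCBP1, which loads iron into ferritin, overlapped in RPF, at 241 and 306 against 301 and 304, and in RNA, at 2165 and 2096 against 2560 and 1846.

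**Figure D2:**
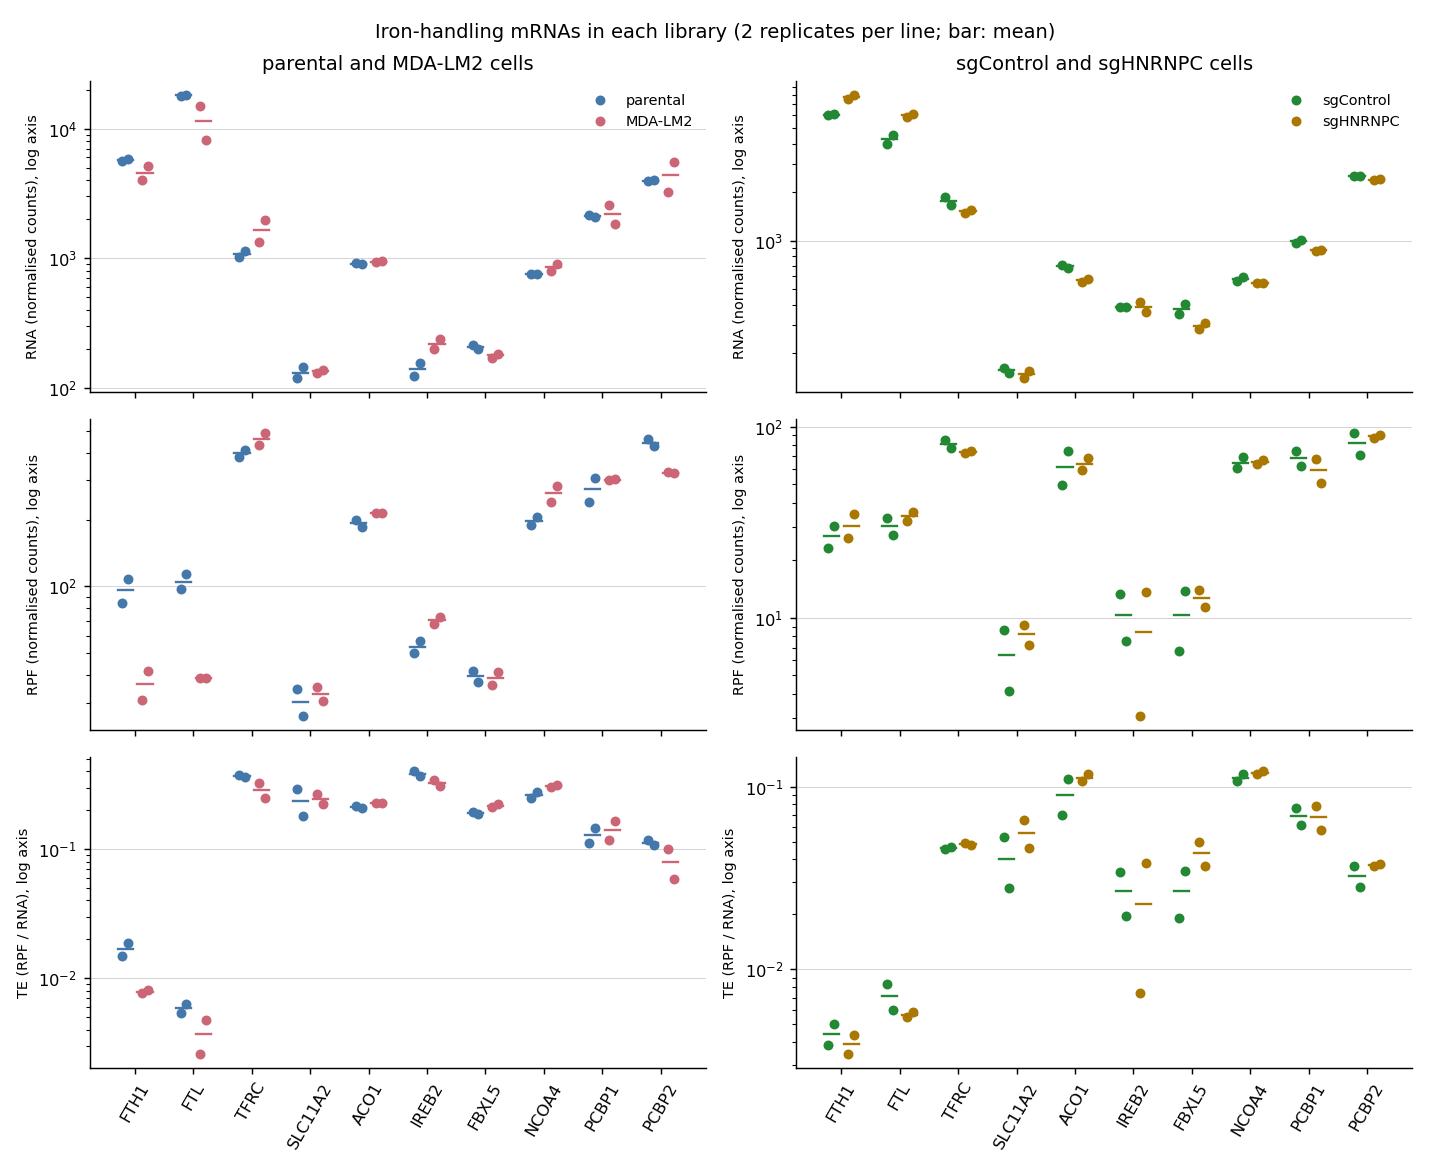
Values of the 10 iron genes in every library, as RNA (top), RPF (middle) and TE (bottom) on log axes, with parental and MDA-LM2 cells on the left and sgControl and sgHNRNPC cells on the right. Points are the 2 replicates of a line and short bars their mean; the red MDA-LM2 points of FTH1 and FTL footprints lie well below the blue parental points, whereas their footprints overlap between sgControl and sgHNRNPC.

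As a description only, the fit on all genes placed 4 of the 10 below an adjusted p of 0.05 in RPF (FTH1, FTL and PCBP2 lower, NCOA4 higher), where 12.0% of all tested genes were, 7.03% lower and 5.0% higher. It placed 1 there in RNA (IREB2, higher), against 15.2% of all genes, 5.8% higher and 9.44% lower. In TE limma placed 0 of the 10 there, against 0.0357% of all genes, 0.0119% lower and 0.0238% higher, and 3 at an unadjusted p under 0.05, against 5.42% of all genes. The logistic regression of the study, which takes reads as replicates, placed 4 there in TE, all lower (FTH1, FTL, PCBP2 and TFRC). Its share over all tested genes is not given here. Nothing is read from these counts, because the genes were listed with the MDA-LM2 values known. Both MDA-LM2 libraries lay below both parental ones for 3 of the 10 genes in RPF (27.6% of all genes) and above them for 4 (25.7%). In RNA these counts were 3 below (33.6%) and 4 above (28.5%), and in TE 5 below (15.8%) and 3 above (20.5%). The median log2 RPF change was 0.14 over the 10 genes and -0.01 over all tested genes. In these bulk lysates, fewer cells that carry an mRNA and less of it per cell cannot be told apart.

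The knockdown asks whether these mRNAs shift when HNRNPC is reduced in MDA-MB-231 cells. In MDA-LM2 cells HNRNPC RNA was 2197 and 1930, against 2768 and 2664 in parental cells. Both MDA-LM2 libraries thus lay below both parental ones. The log2 change of -0.40 ± 0.12 had an unadjusted p of 0.0109 and did not pass the test over all genes (adjusted p = 0.0618, limma). The HNRNPC RPF change there was -0.13 ± 0.10 (adjusted p = 0.441). HNRNPC RNA was 2162 and 2146 in sgControl and 1147 and 1183 in sgHNRNPC, a log2 change of -0.89 ± 0.05 (adjusted p = 5.14e-28, limma). HNRNPC RPF changed by -0.57 ± 0.19 after knockdown and did not pass the test (adjusted p = 0.467, limma). The RPF test of this comparison thus did not call even the targeted gene, so a gene not called in RPF is not shown to be unchanged. Both ferritin RNAs rose after knockdown, by 1.28-fold for FTH1 and 1.41-fold for FTL, and 4 other iron mRNAs fell by 1.14-fold to 1.28-fold. No RPF or TE change of an iron gene passed the test.

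FTH1 RNA was 6037 and 6078 in sgControl and 7543 and 7987 in sgHNRNPC, a log2 change of 0.36 ± 0.04 (adjusted p = 3.21e-12, limma) that was the 59th highest of 4283 genes. FTL RNA was 3992 and 4513 in sgControl and 5878 and 6096 in sgHNRNPC, a change of 0.50 ± 0.04 (adjusted p = 3.64e-17, limma) that was the 19th highest. Neither pair of lines overlapped. Both rises passed the test under the 10 other settings that kept these genes (a minimum mean of 50 left them out), with changes between 0.32 and 0.40 for FTH1 and between 0.41 and 0.58 for FTL.

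A change of ferritin footprints was not detectable after knockdown. FTH1 RPF values were 23.3 and 30.4 in sgControl and 26.0 and 34.8 in sgHNRNPC, with a log2 change of 0.17 ± 0.25 (adjusted p = 0.906, limma). FTL RPF values were 33.3 and 27.2 against 32.1 and 35.7, with a change of 0.16 ± 0.23 (adjusted p = 0.903, limma). The lines overlapped for both. The 95% interval of the change ran from -0.34 to 0.69 for FTH1 and from -0.31 to 0.64 for FTL, so an RPF rise as large as that of the RNA lies within it, as does no change. The RPF change of FTH1 in MDA-LM2, -1.39, lies below that interval, but the difference between the comparisons was not tested. TE was 0.00385 and 0.00500 against 0.00345 and 0.00436 for FTH1 and 0.00835 and 0.00603 against 0.00546 and 0.00586 for FTL. Their log2 TE changes were -0.19 ± 0.22 and -0.33 ± 0.17, and neither passed the test (adjusted p = 0.848 and 0.642, limma).

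TFRC RNA was 1871 and 1657 in sgControl and 1488 and 1557 in sgHNRNPC, a log2 change of -0.21 ± 0.05 (adjusted p = 0.0012, limma). Without sgControl replicate 1 it was -0.12 and no longer passed (adjusted p = 0.197). Its RPF values, 85.3 and 77.5 against 72.8 and 74.5, gave a change of -0.14 ± 0.17 (adjusted p = 0.88). ACO1 RNA fell from 709 and 677 to 556 and 579, a change of -0.29 ± 0.07 (adjusted p = 0.00109, limma), and passed under all 11 other settings. FBXL5 RNA fell from 350 and 404 to 281 and 307, a change of -0.35 ± 0.09 (adjusted p = 0.00402), which was lost without sgControl replicate 2 (adjusted p = 0.138) and without sgHNRNPC replicate 1 (adjusted p = 0.0859). PCBP1 RNA fell from 970 and 1007 to 860 and 875, a change of -0.19 ± 0.06 (adjusted p = 0.0157). This call was lost when sgControl replicate 2 or either sgHNRNPC replicate was left out (adjusted p = 0.0657 to 0.125) and under quantile normalisation (adjusted p = 0.0893).

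NCOA4 RNA, 564 and 592 against 544 and 548, and PCBP2 RNA, 2511 and 2499 against 2360 and 2408, lay lower in both sgHNRNPC libraries but did not pass the test (adjusted p = 0.492 and 0.294, limma). IREB2 and SLC11A2 were not tested. IREB2 RNA was 388 and 389 against 413 and 361, and its RPF values of 13.3 and 7.58 against 3.07 and 13.7 were too low and too spread to compare. SLC11A2 RNA was 163 and 150 against 140 and 156.

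In all, limma called 6 of the 8 tested genes in RNA, 2 higher and 4 lower, where it called 16% of all tested genes (4.72% higher and 11.3% lower). In RPF and in TE it called 0 of 8, against 0.0233% and 0.0% of all tested genes, with 0 of 8 at an unadjusted p under 0.05 in either, against 7.68% and 7.75%. Logistic regression also called 0 of 8 in TE, and its share over all tested genes is not given here. Only TFRC had RPF values in which both knockdown libraries lay on one side of both controls, below them, as did 17.1% of all genes (20.8% lay above). In RNA both knockdown libraries lay above both controls for 2 genes (20.2% of all) and below for 6 (34.6%), and in TE above for 3, TFRC, FBXL5 and PCBP2 (22.6%), and below for FTL alone (14.0%). The FTH1 to TFRC footprint ratio was 0.273 and 0.392 in sgControl and 0.357 and 0.467 in sgHNRNPC, and overlapped between the lines, whereas the RNA ratio, 3.23 and 3.67 against 5.07 and 5.13, did not.

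**Figure D3:**
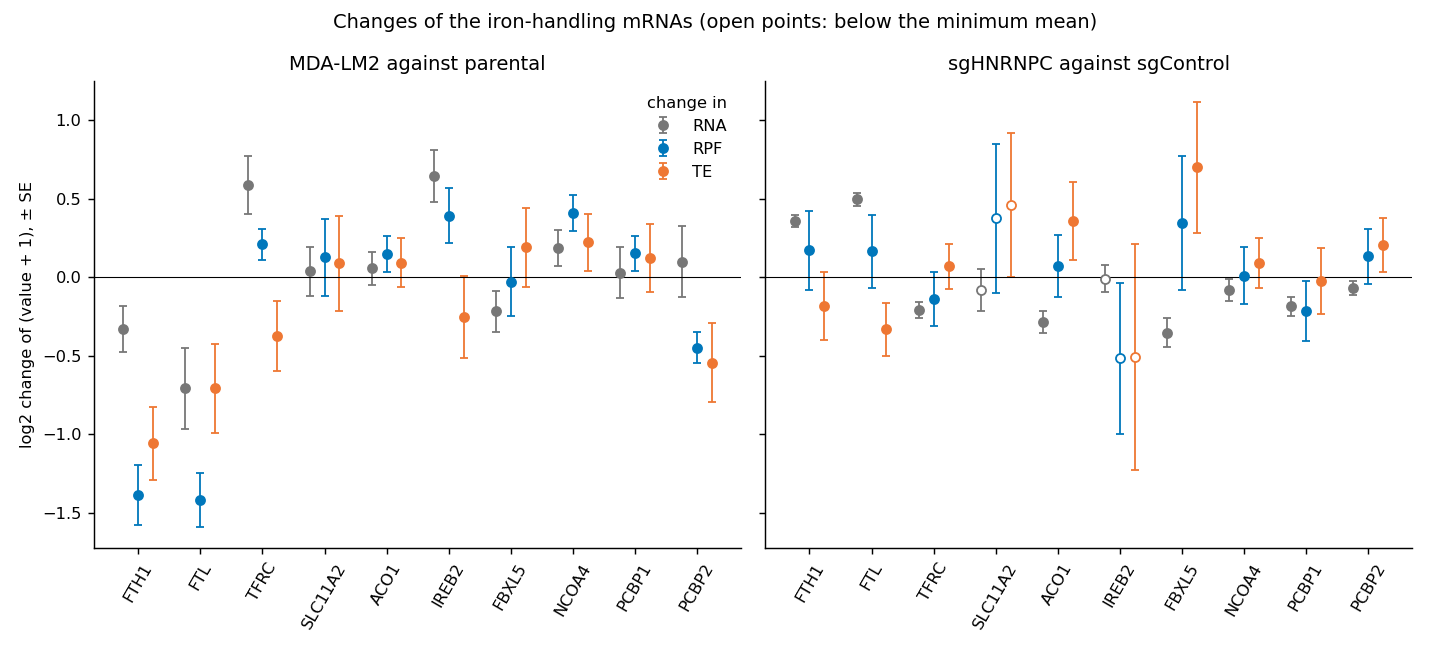
Log2 changes of the 10 iron genes in RNA (grey), RPF (blue) and TE (orange) in MDA-LM2 against parental cells (left, no test for these genes) and in sgHNRNPC against sgControl (right); points are changes of log2(value + 1), bars are standard errors with 2 libraries per line, and open points are genes below the minimum mean. FTH1 and FTL footprints are near -1.39 and -1.42 on the left, and on the right the RNA of both is above 0 while the RPF bars of both reach across 0.

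The search that found the ferritin elements matched 9 other 5′ UTRs. Among them were those of ADAR, ENC1, GART, PRPF18, ZER1, SLC4A4, ZBTB14 and ZNF782, and 6 of the 9 passed the filter in the MDA-LM2 table. Their log2 TE changes in MDA-LM2 ran from -0.31 to 0.38 with a median of -0.03, and limma called 0 of the 6 in RNA, RPF or TE, against 15.2%, 12.0% and 0.0357% of all tested genes. At an unadjusted p under 0.05 there were 1 in RPF and 0 in RNA and TE, against 24.6%, 31.8% and 5.42% of all. The FTH1 and FTL changes of -1.06 and -0.71 in TE lay below this range, although FTL without replicate 1 of MDA-LM2, at -0.27, lay inside it. The lower FTH1 footprints of MDA-LM2 had been seen before these genes and this search were chosen, so the contrast is descriptive only. Whether the other matches act as IREs was not tested, and nothing about IREs is read from it. Of the mRNAs known for IREs, CDC42BPA changed by 0.04 ± 0.15 and EPAS1, the hypoxia-inducible factor 2 subunit, by -0.14 ± 0.27 in RPF, and neither passed the test (adjusted p = 0.905 and 0.809, limma). ALAS2, CDC14A and PFN2 did not enter the test. After knockdown 4 of the 9 passed the filter, with TE changes from -0.38 to 0.45. Limma called 1, ENC1, lower in RNA (-0.24 ± 0.07, adjusted p = 0.0118), where 16% of all tested genes were called. CDC42BPA lay lower in both sgHNRNPC libraries in RPF (-0.583 ± 0.315) and TE (-0.558 ± 0.206). Neither change passed the test (adjusted p = 0.704 and 0.584, limma). EPAS1 did not enter the test there.

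A wider list of 85 iron genes was then tested, of which 56 passed the filter in the MDA-LM2 table. This list too was drawn up with earlier results of these data known, so its calls are not independent support for a change of iron genes. In RNA 12 were called, 6 higher and 6 lower, in RPF 8 were called, 1 higher and 7 lower, and in TE 0 were called, against 15.2%, 12.0% and 0.0357% of all tested genes. In TE 2 were at an unadjusted p under 0.05, against 5.42% of all. The median log2 change of the list was -0.13 in RNA and -0.07 in RPF, against -0.02 and -0.01 over all tested genes. The counts in RNA and RPF depended on which library was left out, and such fits keep only 1 library of 1 line. The share of all tested genes called in those fits is not given here, so nothing about iron genes is read from their counts. HMOX1 and LRP1 were called in RNA with any library left out, and HMOX1, BLVRA, LRP1 and HIF1A in RPF. The other 10 RNA calls were each lost without parental replicate 1, with adjusted p from 0.0817 to 0.212, and 7 of them also without parental replicate 2. Of the other RPF calls, ATP6V1A was lost without parental replicate 2 (adjusted p = 0.0857), FDX1 without that library or MDA-LM2 replicate 1 (adjusted p = 0.216 and 0.229), PCBP4 without any library but MDA-LM2 replicate 2 (adjusted p = 0.117 to 0.256) and NUBP1 without any of the 4 (adjusted p = 0.0793 to 0.178).

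In the heme group, 2 genes of heme breakdown were lower in MDA-LM2 in both kinds of library. HMOX1, the heme oxygenase that releases iron from heme, fell in RNA from 286 and 274 to 141 and 112 (log2 change -1.15 ± 0.15, adjusted p = 0.00408, limma) and in RPF from 35.7 and 35.1 to 14.3 and 18.0 (-1.09 ± 0.28, adjusted p = 0.00704). BLVRA, the biliverdin reductase of the next step, fell in RNA from 336 and 284 to 194 and 166 (-0.78 ± 0.15, adjusted p = 0.0158) and in RPF from 58.6 and 51.3 to 26.1 and 28.7 (-0.98 ± 0.22, adjusted p = 0.00214). UROD, an enzyme of heme synthesis, fell in RNA (-0.70 ± 0.17, adjusted p = 0.0326) with RPF values of 127 and 130 against 120 and 110. These 3 were all of the heme genes called in RNA, of 9 tested, where 9.44% of all tested genes were called lower. In RPF 2 of the 9 were called, both lower, against 7.03% of all tested genes. The other heme breakdown genes of the list were not called in either kind of library. The median of the 9 was -0.29 in RNA.

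Uptake and transport genes went both ways in RNA, with 4 of 11 called higher and 2 lower, against 5.8% and 9.44% of all tested genes, and all of these calls but that of LRP1 were lost without parental replicate 1. LRP1, an endocytic receptor that also takes up heme bound to hemopexin, rose in RNA from 1405 and 1471 to 2424 and 2680 (0.83 ± 0.11, adjusted p = 0.00458) and in RPF from 95.6 and 96.4 to 173 and 176 (0.86 ± 0.13, adjusted p = 1.32e-05). It was the only gene of the list called higher in RPF. SLC39A14, a zinc and iron importer, FLVCR1, a heme exporter, and SLC25A37, a mitochondrial iron importer, rose in RNA by 0.61 ± 0.14, 0.64 ± 0.14 and 0.55 ± 0.12 (adjusted p = 0.0273, 0.0275 and 0.024). SLC39A8, another metal importer, and HFE, a partner of the transferrin receptor, fell by -0.59 ± 0.14 and -0.51 ± 0.13 (adjusted p = 0.0295 and 0.0448). The last 2 did not pass with libraries rescaled to equal totals (adjusted p = 0.0633 and 0.15).

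Of the remaining groups, regulation had SMAD4, a transducer of bone morphogenetic protein signals, higher in RNA (0.66 ± 0.15, adjusted p = 0.0273). HIF1A, whose protein is marked for decay by iron-dependent hydroxylases, was lower in RPF, from 547 and 580 to 372 and 447 (-0.46 ± 0.10, adjusted p = 0.00115). ATP6V1A, a subunit of the proton pump that acidifies endosomes, was lower in RPF, from 105 and 115 to 73.7 and 73.7 (-0.57 ± 0.15, adjusted p = 0.00955). Among 20 tested genes of iron-sulfur cluster assembly, FDX1, a ferredoxin, and NUBP1, a cytosolic scaffold protein, were lower in RPF (-0.85 ± 0.27 and -0.68 ± 0.23, adjusted p = 0.0334 and 0.0448). These 2 of 20 are close to the 7.03% of all tested genes called lower in RPF, and the median RPF change of the 20 was 0.002. PCBP4, a relative of the iron chaperones, was lower in RNA (-0.74 ± 0.13, adjusted p = 0.0112) and in RPF (-0.94 ± 0.31, adjusted p = 0.0431). The RPF calls of NUBP1 and PCBP4 were lost without the filter (both adjusted p = 0.0557) and with equal totals (adjusted p = 0.0659 and 0.0552).

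After HNRNPC knockdown 27 of the 85 passed the filter. Limma called 1 in RNA, GLRX3, a glutaredoxin of cytosolic iron delivery, which fell by -0.38 ± 0.11 (adjusted p = 0.0124) and was lost when any library other than sgControl replicate 1 was left out (adjusted p = 0.0589 to 0.241). It called 0 in RPF and 0 in TE. Of all tested genes it called 16% in RNA, 0.0233% in RPF and 0.0% in TE. At an unadjusted p under 0.05 there were 2 of the 27 in RPF and 4 in TE, against 7.68% and 7.75% of all tested genes.

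**Figure D4:**
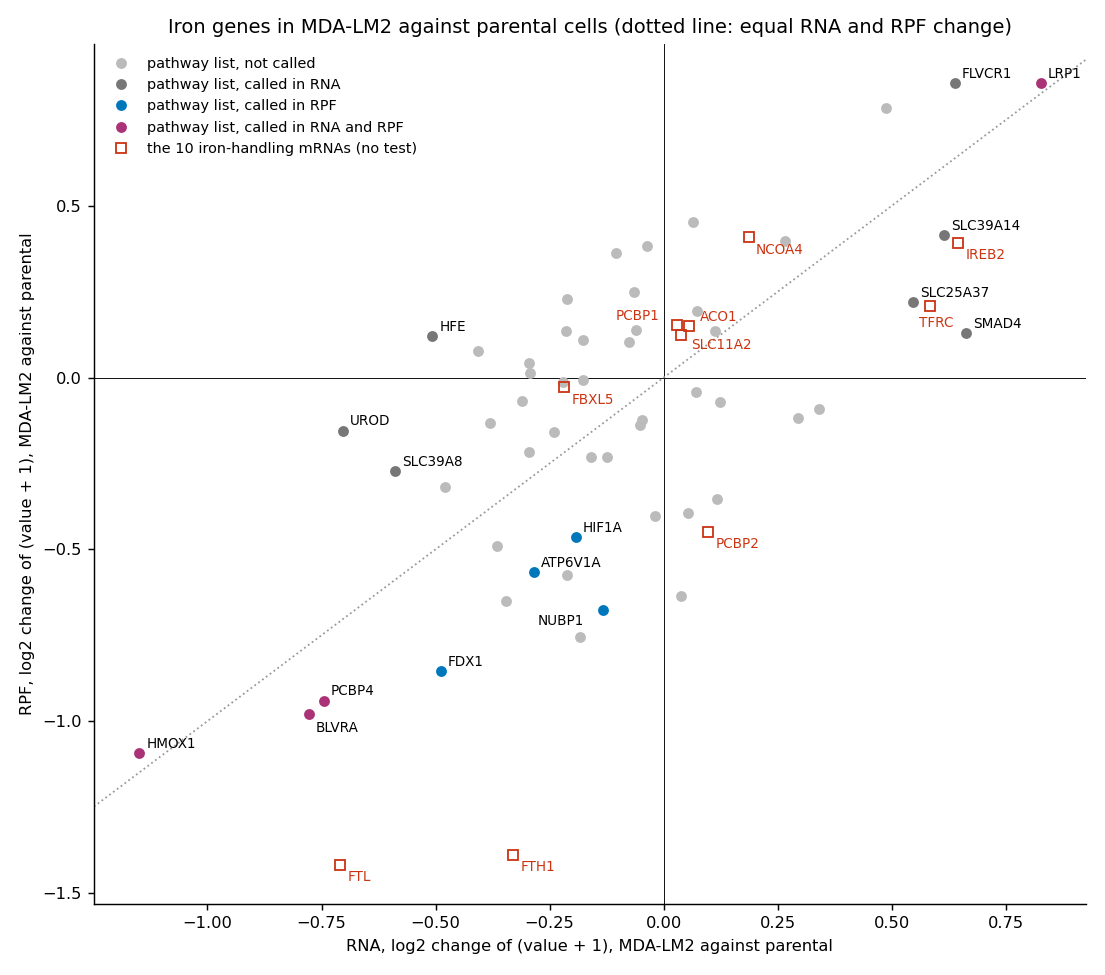
RNA change (x axis) against RPF change (y axis) in MDA-LM2 against parental cells, both as log2 of value plus 1, for 54 of the 56 tested genes of the iron list (circles, coloured and named where called by limma in RNA, RPF or both) and for the 10 iron genes (red squares, no test). HMOX1, BLVRA, PCBP4 and LRP1 lie near the dotted line of equal RNA and RPF change, while FTH1 and FTL lie below it, with RPF changes of -1.39 and -1.42.

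The profiles most like that of FTH1 were sought among 669 genes listed in both tables with a mean of at least 50 in every table and kind of library. Over the 16 libraries, on log2 values centred within each table and kind of library, the highest Pearson r was that of ITGA2 (0.869), followed by ATL3 (0.853), HIF1A (0.846), NRP1 (0.839) and KDELR1 (0.829). FTH1 itself was below that minimum in RPF in the knockdown table, at 23.3 and 30.4 in sgControl and 26.0 and 34.8 in sgHNRNPC. Every r therefore rests in part on low FTH1 footprint values. FTL, whose RPF values are also below that minimum in the knockdown table, had an r of 0.788. Of the iron genes that met that minimum, PCBP2 had an r of 0.524, ACO1 of -0.204, TFRC of -0.337, PCBP1 of -0.471 and NCOA4 of -0.589. All points share their libraries, and the lower FTH1 footprints of MDA-LM2 enter every value, so these values are descriptive.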

How the data were processed

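Ribosome profiling and RNA-seq of 4 MDA-MB-231 lines were read from the 2 deposited tables, whose values are a normalised signal per transcript on a linear scale. Per the labels and the study's methods, the authors trimmed footprints with cutadapt 2.3, removed rRNA and tRNA reads and aligned the rest with Bowtie2 2.3.5 to the isoform with the longest coding sequence of each gene, removed duplicates with UMI-tools, and scaled counts by median-of-ratios size factors. The processing notes name hg38. The RNA values were multiples of a single step, at 5141959 to 8193031 steps per library. RPF values follow no step, so their depth is unknown, and whether a correction for ribosome stalling was applied to them is not given in the sources used here.

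Values were transformed as log2(value + 1), so changes of low genes are understated, and genes with a mean of at least 10 in each kind of library were fitted with limma 3.58.1 in R 4.3.3 (trend, two-sided, Benjamini-Hochberg over all tested genes, threshold 0.05). TE was the interaction of line and kind of library. Intervals are 95% and cover the spread between 2 replicates. Summaries and plots were made in Python 3.11.15 (pandas 2.3.3, numpy 2.4.6, matplotlib 3.10.9). Transcripts were matched to GENCODE 44 for 10599 of 10823.

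The iron genes, the list of 85 and the search for elements were chosen with earlier results of these data known. Named genes are the 10, every gene of the list called by limma, the known IRE mRNAs, HNRNPC, and the 5 genes most correlated with FTH1. Values of 2 genes of the list are not reported here, though counts and medians include them. Alternatives were an added value of 0.5 or 5, no filter or a minimum mean of 50, equal totals, quantile normalisation, a replicate term, TE within lysate, logistic regression and leaving out each replicate. No batch is given in the labels. Protein sequences were not used here.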

Additional observations from a re-analysis of the deposited data

How the results depend on the processing

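The FTH1 RPF change in MDA-LM2 ranged from -1.598 to -1.181 on the log2 scale with a replicate left out, and that of FTL from -1.53 to -1.31 over all settings. Rescaling to equal totals raised the median RNA change of all genes in MDA-LM2 by 0.17 and moved that of TE by -0.12. With a minimum mean of 50, fewer genes were tested, and calls in the iron list were 3 in RNA and 4 in RPF in MDA-LM2 and 0 in RNA after knockdown. There 5 of the 10 iron genes were tested, FTH1 and FTL not among them, and 3 were called in RNA (TFRC, ACO1 and PCBP1). The share of all genes called under the alternative settings is not given here, so nothing about iron genes is read from their counts. Leaving out a replicate gave 2 to 31 RNA calls and 4 to 7 RPF calls in MDA-LM2, and 0 to 3 RNA calls after knockdown, where no filter and quantile normalisation each gave 2. Logistic regression called 2 of the list in TE in MDA-LM2 (UROD, 0.53, and HIF1A, -0.28). The cause of the differences between settings other than the minimum mean was not tested. Some changes after knockdown that did not pass the test turned sign. These were TFRC TE under quantile normalisation (-0.039) and NCOA4 RPF under equal totals (-0.018) and quantile normalisation (-0.032). With a replicate left out, RPF changes ran from -0.031 to 0.375 for FTH1, from -0.218 to 0.362 for ACO1, from -0.086 to 0.103 for NCOA4, from -0.131 to 0.821 for FBXL5 and from -0.057 to 0.320 for PCBP2, and TE changes from -0.247 to 0.193 for PCBP1. Count tests of the RNA steps with edgeR and DESeq2 were planned and not run, so how the RNA calls would fare under them is not known.

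The replicate numbers were not taken as a pairing. Deviations of same-numbered samples correlated at 0.234 in RNA and 0.0443 in RPF for MDA-LM2 and at -0.00377 and 0.0281 after knockdown. With the replicate number as a block, the iron list had 16 calls in RNA, 9 in RPF and 0 in TE in MDA-LM2. After knockdown it had 1, 0 and 0, and 6, 0 and 0 of the 8 iron genes were called. The share of all genes called with the block is not given here either. The block left the FTH1 RPF change in MDA-LM2 at -1.39.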

Other observations

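The ratio of FTL to FTH1 RNA within a library, which no scaling of libraries alters, was 3.18 and 3.13 in parental replicates 1 and 2, 3.70 and 1.59 in MDA-LM2, 0.661 and 0.743 in sgControl and 0.779 and 0.763 in sgHNRNPC. Parental and sgControl cells are both labelled MDA-MB-231, and the same kit is named for their RNA libraries. The corresponding ratio of footprints was 1.15 and 1.05, 1.25 and 0.932, 1.43 and 0.895, and 1.23 and 1.03, so it overlapped between all 4 lines. The tables were normalised separately, and no test was made across them.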
